A study of Mus musculus with 4 samples.

Results

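The 48 genes described here belong to the type I interferon response: its receptors, the STAT and IRF transcription factors, the sensors of foreign nucleic acid, and the genes that interferon switches on. They were chosen by name, with earlier results of these data known, and each of the 48 was found among the 56748 genes of the count table. They were measured by RNA-seq in HT22, an immortalised line of mouse hippocampal neurons. An HT22 line made to overexpress MEIS2, a homeodomain transcription factor, gave 2 libraries, and a control HT22 line gave 2. The labels name no other treatment, and do not say what the control line carries, how MEIS2 was introduced, whether a line is 1 clone or whether its libraries came from separate cultures. The p-values therefore reflect how far these libraries spread, and that spread may be technical. For the same reasons an effect of MEIS2 cannot be told apart from other differences between the lines, and in bulk RNA fewer expressing cells cannot be told apart from less RNA per cell.

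Type I interferons, the interferon alphas and interferon beta, bind a receptor made of IFNAR1 and IFNAR2. The kinases JAK1 and TYK2 then activate STAT proteins, and a complex that holds STAT2 and IRF9 binds a DNA element with repeated GAAA in the promoters of responding genes. Interferon beta itself is made when RNA sensors signal through MAVS, or the DNA sensor cGAS signals through STING, to the factors IRF3 and IRF7. The products of responding genes cut, bind or modify viral RNA and proteins, or block viral entry at membranes, and many are also kept at a low level in resting cells.

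The libraries held 15705070 and 15014017 counts in the MEIS2 line and 16903967 and 16445575 in the control line, and 12802 genes had enough counts to be tested. Meis2 checked the labels, with 5182 and 5571 counts in the MEIS2 libraries, against 245 and 319 in the controls, and alone among tested genes passed the 0.05 threshold on the Benjamini-Hochberg p of edgeR's quasi-likelihood test (log2 fold change 4.22, SE 0.34, adjusted p 6.41e-05). Of 14 neuronal markers, 8 had 0 counts in all 4 libraries, among them Rbfox3, Snap25 and Gria2. Another 5 had enough counts to be tested: Tubb3, Map2, Syn1, Camk2a and Slc17a7. Tubb3 had 267 and 199 counts in the MEIS2 libraries, against 340 and 263 in the controls. Map2 had 129 and 305 in the MEIS2 libraries, against 102 and 117 in the controls. Most of the neuronal markers looked up were thus not detected in this line labelled as neuronal, but some were. Of 11 markers of microglia and macrophages, 7 had 0 counts in all 4 libraries, Ptprc, Itgam, Cx3cr1 and Adgre1 among them, and Tmem119 was the only one with enough counts to be tested. Of 6 markers of plasmacytoid dendritic cells and lymphocytes, 4 had 0 counts throughout, and the other two summed to between 0 and 11 counts per library. A count of 0 in a library allows up to 3 counts, which is 0.177 to 0.2 CPM before TMM scaling (CPM is a count scaled to a common library total). Fibroblast markers summed to 439.9 and 575.3 CPM in the MEIS2 libraries, against 429.7 and 401.7 CPM in the controls, with 1 of 6 at 0 throughout. Col1a1 gave most of the sum, at 251.2 and 318.8 CPM in the MEIS2 libraries, against 288.2 and 247.4 CPM in the controls. Its libraries overlapped between the lines, at a log2 fold change of 0.09. Dcn, with 3 and 8 counts in the MEIS2 libraries, against 5 and 10 in the controls, had too few to be tested. All 4 that could be tested had a higher fitted level, where 49.1% of all tested genes had a lower one. Both MEIS2 libraries lay above both controls for 3 of them, where 22.6% of all tested genes did so. The smallest estimate of these was 0.19, for Pdgfrb. Among these 3, Pdgfra stood at a log2 fold change of 1.10 and Col1a2 at 0.69 (unadjusted p 0.0141 and 0.0455, adjusted p 0.314 and 0.475 in edgeR). At an unadjusted p under 0.05 in edgeR, 9.79% of all tested genes were higher. Pdgfra and Col1a2 are long, at 10024 and 12426 bases. They stood at 0.63 and 0.41 once the dependence on gene length and GC content was taken out. The part of the fibroblast markers in the results was not tested.

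Sequence motifs of the response were searched for in the promoters of these genes. RefSeq promoter windows on GRCm38.p6, from 250 bases before to 50 after the start of transcription, were at hand for 37 of the 48 genes. Of the 45 windows of these members, 38 read after the start as a transcript of the gene. The interferon-stimulated response element, searched for as GAAA, any 2 bases and GAAA again, is the core that the STAT and IRF9 complex binds. It was found on either strand in 17 of the 37 (45.9%), against 3.99% of all 27025 genes with a window and 3.81% of the 9349 tested genes with one. The STAT dimer motif TTCNNNGAA was found in 13 of the 37 (35.1%), against 9.55% of all genes with a window, and it overlapped a match of the response element in 2 of the members. A match describes these letters, not a bound site. The windows below are the 50 bases around the matches that lie before the start site, in 8 genes that recur in the results. These 8 were picked from the members with such a match. Of the 37 members with a window, 20 had no match on either side of the start site. In Eif2ak2, Ifih1 and Ifitm3 the matches lay only after it. Capitals mark the matches, and each window is written on the strand of its gene. Where a match lies on the other strand, the capitals read TTTC, any 2 bases and TTTC.
Isg15, chr4:156200861-156200910, minus strand: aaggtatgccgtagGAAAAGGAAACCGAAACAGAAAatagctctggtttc
Bst2, chr8:71537570-71537619, minus strand: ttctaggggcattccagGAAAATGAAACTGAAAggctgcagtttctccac
Ifitm2, chr7:140955978-140956027, minus strand: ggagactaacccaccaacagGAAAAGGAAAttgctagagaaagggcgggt
Oas1a, chr5:120907526-120907575, minus strand: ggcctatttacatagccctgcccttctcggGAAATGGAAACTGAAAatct
Oas1g, chr5:120887614-120887663, minus strand: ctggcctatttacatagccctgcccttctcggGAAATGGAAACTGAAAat
Ifit1, chr19:34640774-34640823, plus strand: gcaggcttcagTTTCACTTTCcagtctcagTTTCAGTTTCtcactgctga
Ifit3, chr19:34583370-34583419, plus strand: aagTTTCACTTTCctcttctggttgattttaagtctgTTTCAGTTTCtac
Ifit3b, chr19:34607766-34607815, plus strand: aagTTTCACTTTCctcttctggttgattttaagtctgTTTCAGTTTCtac
The printed windows of Ifit3 and Ifit3b were the same 50 bases, and those of Oas1a and Oas1g held the same letters in capitals. Isg15 held 3 matches in 1 run. Ifitm3 held 2 matches, both after the start site, and Ifitm1 and Ifitm6 held none in their windows. Genes with a match had a median level of 70.3 CPM per kilobase in the MEIS2 line and 72.3 in the control line, and the 20 genes with a window but no match had 33.9 in the MEIS2 line and 28.5 in the control line. Their median log2 fold changes were -0.14 with a match and -0.19 without one.

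The 48 genes were abundant in both lines. They were chosen with earlier results of these data known, and all had enough counts to be tested. Their level is therefore not read as a trait of interferon response genes at large. Levels that compare genes are given as TMM-scaled CPM per kilobase of gene length. The median level over the 48 genes was 51.7 in the MEIS2 line and 49.2 in the control line. Medians over all tested genes were 5.92 in the MEIS2 line and 5.26 in the control line. Over the 75 other pathway genes looked up, tested or not, they were 10.3 in the MEIS2 line and 8.76 in the control line. In the MEIS2 line 27 of the 48 lay in the top 10% of tested genes and 5 in the top 1%, and in the control line 23 and 4 did. In each line 45 of 48 lay above the median tested gene in this ranking, and the other three were Cgas, Ifitm1 and Ifitm6. Together the 48 genes took 1.61% and 1.54% of all counts in the MEIS2 libraries, against 1.8% and 1.74% in the controls.

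**Figure D1:**
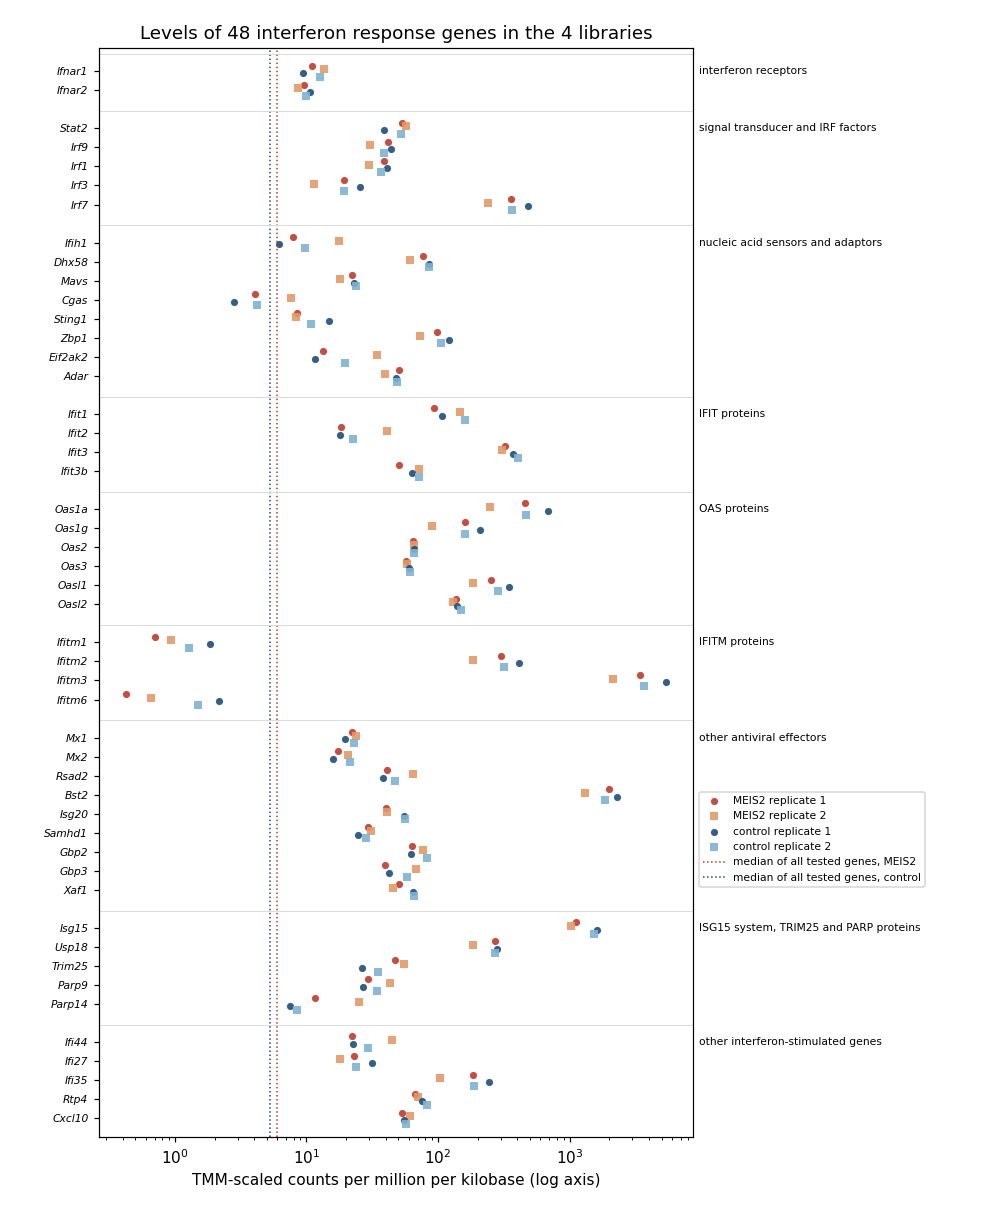
Level of each of the 48 genes in each library, as TMM-scaled CPM per kilobase of gene length on a log axis, grouped by role, with MEIS2 libraries in red and orange and control libraries in dark and light blue. Dotted lines mark the median of all tested genes in each line; Ifitm3, Bst2 and Isg15 lie far to the right, and Ifitm1 and Ifitm6 lie left of both lines.

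None of the 48 genes passed the same threshold between the lines in edgeR, where 0.00781% of all tested genes did. The lowest adjusted p of the 48 was 0.279, in edgeR, and was 0.127 in DESeq2 and 0.437 in limma-voom, all for Parp14. At an unadjusted p under 0.05, edgeR placed Parp14 and Trim25 higher (2 of 48, 4.17%, against 9.79% of all tested genes) and Ifitm6 lower (1 of 48, 2.08%, against 0.414% of all tested genes). DESeq2 placed 2 higher and 2 lower at that p, where 8.87% of all tested genes were higher and 0.758% lower. In limma-voom 2 were higher and 1 lower, against 7.96% and 0.57% of all tested genes. The SE of a log2 fold change ranged from 0.29 to 0.64 over the 48. Without MEIS2 replicate 1, 8 of the 48 (16.7%) passed the threshold (Parp14, Ifih1, Cgas, Eif2ak2 and Ifit2 higher, Ifitm3, Oas1a and Ifi35 lower), against 2411 of all genes tested in that fit (18%). With any other single library left out 0 of the 48 passed.

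The fitted level was lower in the MEIS2 line for 32 of the 48 genes (66.7%) and higher for 16, where 49.1% of all tested genes were lower. The median log2 fold change was -0.18, against 0.01 over all tested genes. Both MEIS2 libraries lay below both controls for 23 genes (47.9%), where 19.1% of all tested genes did so, and above both controls for 4 (8.33%), where 22.6% of all tested genes did. A log2 fold change below -0.5 was found for 12 of the 48, where 10.9% of all tested genes had one, and above 0.5 for 6 of the 48, where 24.2% of all tested genes had one. When only library size was used for scaling, the median over all tested genes was 0.17, and 25 of 48 were lower with a median of -0.03, against 38.7% of all tested genes. Without MEIS2 replicate 2, 41 of 48 were lower, and 59% of all tested genes.

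**Figure D2:**
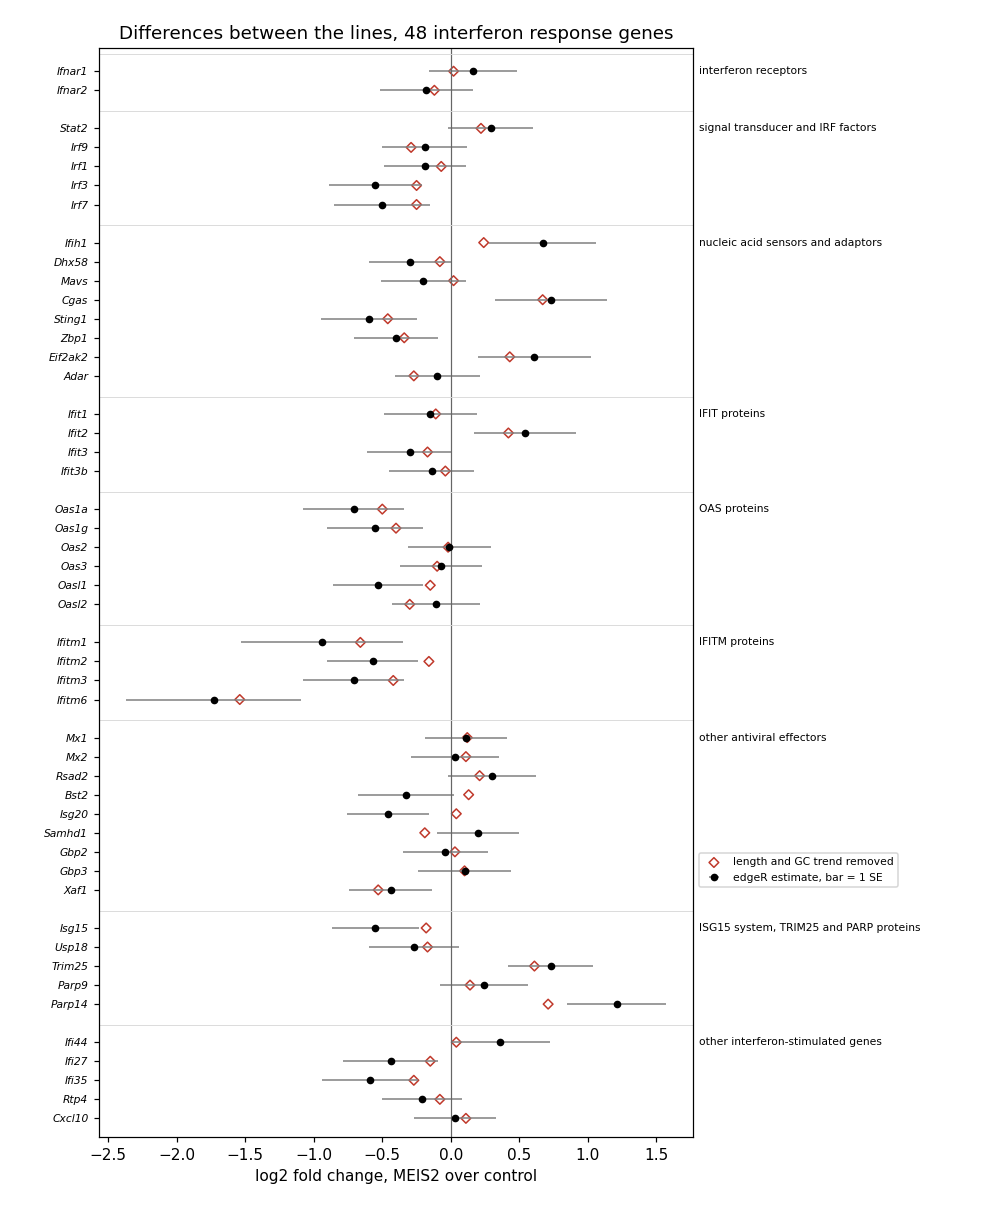
Log2 fold change of MEIS2 over control for each of the 48 genes, grouped by role, with bars of 1 SE on each side from edgeR. Open diamonds give the estimate once the dependence on gene length and GC content was taken out of every library; Parp14, Trim25 and Cgas lie farthest to the right in edgeR's estimate, Ifitm6 and Ifitm1 farthest to the left.

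The differences ran with gene length. Tested genes were split by length into 3 groups of like size. Among the 20 members of up to 3029 bases, 19 were lower (95%, median log2 fold change -0.49), against 72.3% of all tested genes of that length (median -0.27). Above that and up to 5661 bases 10 of 18 were lower (median -0.10), against 51.4% of all tested genes (median -0.02). Above 5661 bases 3 of 10 were lower (30%, median 0.24), against 23.5% of all tested genes (median 0.43). Spearman's rho between length and log2 fold change was 0.74 across the 48 genes and 0.49 across all tested genes, as a description across genes that share the same 4 libraries. With that dependence on length and GC content taken out of every library (the trend removed, below), rho was 0.37 across the 48 and 0.04 across all tested genes, 29 of the 48 were lower (all tested genes: 46.7%), and the median was -0.09 (all tested genes: 0.03). The part of RNA quality or library preparation in this trend was not tested.

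**Figure D3:**
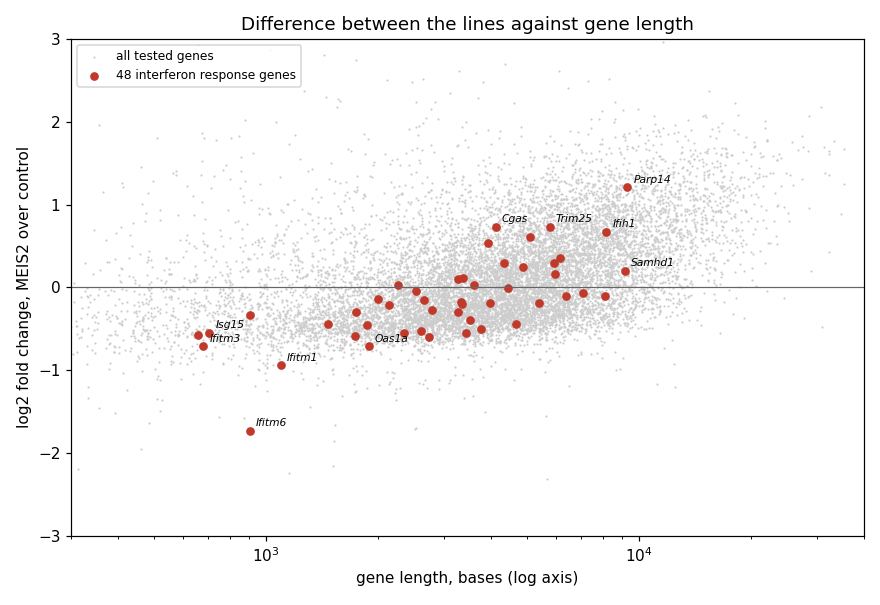
Log2 fold change of MEIS2 over control against gene length in bases (log axis) for the 48 genes in red and all tested genes in grey, of which 83 lie outside the axes. Short members such as Ifitm6, Ifitm3 and Isg15 lie below 0 and Parp14, among the longest, lies above it, and the grey cloud also lies higher at greater length.

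In CPM, the libraries of the lines overlapped for 21 of the 48 genes, and for 7470 of the 12802 tested genes. The median deviation of the 48 genes from each gene's mean on the log2 scale was -0.04 and -0.18 in MEIS2 replicates 1 and 2, against 0.06 and 0.09 in control replicates 1 and 2. The median absolute log2 difference between the MEIS2 libraries was 0.36 over the 48 genes and that between the controls was 0.33, while MEIS2 replicate 1 differed from control replicate 2 by 0.14. Over all tested genes these values were 0.50, 0.31 and 0.22. Of the pairs across the lines, only that of MEIS2 replicate 1 and control replicate 2 was computed. The deviations of MEIS2 replicate 2 and control replicate 1 were -0.815 and 0.654 for Oas1a and 1.099 and -0.644 for Parp14. For Oas2 they were 0.009 and 0.011. These medians therefore do not say whether the lines differed less than their replicates did.

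**Figure D4:**
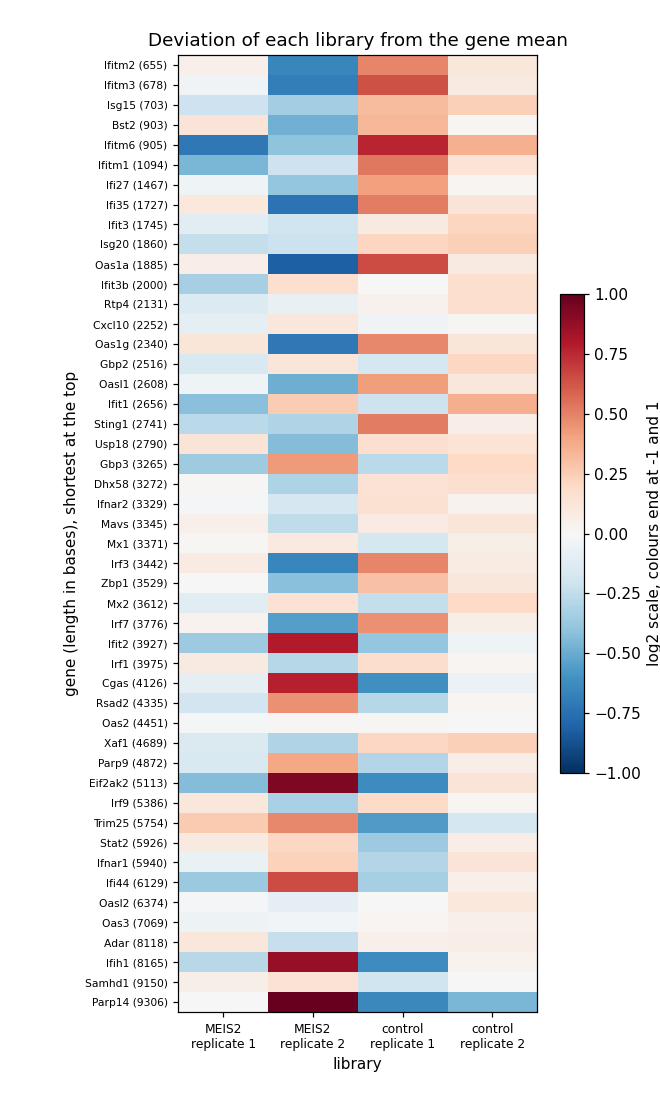
Deviation of each library from the mean of its gene on the log2 scale (red above, blue below), with MEIS2 libraries in the left 2 columns and controls in the right 2, and the 48 genes sorted by length with the shortest at the top. MEIS2 replicate 2 is blue for most of the shortest genes and dark red for Parp14, Ifih1 and Eif2ak2, control replicate 1 is the reverse for these genes, and MEIS2 replicate 1 and control replicate 2 are paler.

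The receptor genes were at similar levels in both lines. Ifnar1, which encodes the chain that TYK2 sits on, had 1031 and 1360 counts in the MEIS2 libraries, against 865 and 1227 in the controls, and measured 66.1 and 81.1 CPM in the MEIS2 libraries, against 56.4 and 75.5 CPM in the controls. Ifnar2, which encodes the chain that JAK1 sits on, measured 31.7 and 28.5 CPM in the MEIS2 libraries, against 35.6 and 32.7 CPM in the controls. The libraries of the lines interleaved for Ifnar1, and for Ifnar2 both MEIS2 libraries were slightly lower. The log2 fold changes were 0.16 (SE 0.32, adjusted p 0.843 in edgeR) for Ifnar1, whose sign turned without control replicate 1 or without MEIS2 replicate 2, and -0.18 (SE 0.34) for Ifnar2. Per kilobase, Ifnar1 was at 12.4 ± 1.79 CPM in the MEIS2 line and 11.1 ± 2.28 CPM in the control line (SD, n = 2 each), the higher of the pair.

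Among the transcription factors, Irf7 stood out by level. IRF7 is itself induced by interferon and in turn drives interferon genes. Irf7 (chromosome 7, 140842619 to 140846394 on the minus strand, positions as in the table, build not given in the sources used here) had 21172 and 15215 counts in the MEIS2 libraries, against 27951 and 22446 in the controls. Its level was 299.7 ± 84.2 CPM per kilobase in the MEIS2 line and 424.1 ± 82.4 in the control line (SD, n = 2 each), which ranked 140 in the MEIS2 line and 129 in the control line among 12802 tested genes. Both MEIS2 libraries lay below both controls, MEIS2 replicate 1 only just below control replicate 2 (1356.5 against 1381.5 CPM), and the estimated log2 difference was -0.50 (SE 0.35, adjusted p 0.605 in edgeR). It stood at -0.25 with the length and GC trend removed and at -0.29 and -0.30 without MEIS2 replicate 2 and without control replicate 1.

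Irf3, the constitutive factor downstream of the sensors, measured 66 and 39.4 CPM in the MEIS2 libraries, against 87.9 and 66.2 CPM in the controls, a log2 fold change of -0.55 (SE 0.34) that was -0.25 with the trend removed. Stat2, the signal transducer specific to this pathway, had both MEIS2 libraries above both controls, at 313.7 and 340.7 CPM in the MEIS2 libraries, against 228.7 and 308.4 CPM in the controls. Its log2 fold change was 0.29 (SE 0.31), and 0.08 without control replicate 1. Irf9, the DNA-binding partner of the STAT proteins, and Irf1, an interferon-induced activator, both stood at -0.19 (SE 0.31 and 0.30), with overlapping libraries. Irf9 overlaps Rnf31 on the same strand and Irf7 overlaps Phrf1 on the other in the positions of the table, and the treatment of strand in counting is not known here, so their counts may hold reads of those neighbours. Rnf31 had 1384 to 2660 counts in a library and Phrf1 1775 to 2159.

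The sensors and adaptors split in direction. Ifih1, which encodes the RNA sensor MDA5, had 1008 and 2410 counts in the MEIS2 libraries, against 776 and 1301 in the controls, or 64.6 and 143.7 CPM in the MEIS2 libraries, against 50.6 and 80.1 CPM in the controls. Cgas, the DNA sensor, had 263 and 526 counts in the MEIS2 libraries, against 179 and 282 in the controls, or 16.9 and 31.4 CPM in the MEIS2 libraries, against 11.7 and 17.4 CPM in the controls. Eif2ak2, which encodes the RNA-activated kinase PKR, measured 68 and 176.8 CPM in the MEIS2 libraries, against 59.4 and 100.8 CPM in the controls. In all these genes MEIS2 replicate 2 was the highest library and MEIS2 replicate 1 lay between the controls. The log2 fold change was 0.67 for Ifih1 (SE 0.39, adjusted p 0.578 in edgeR), 0.73 for Cgas (SE 0.41, adjusted p 0.576) and 0.61 for Eif2ak2 (SE 0.41, adjusted p 0.599). Without MEIS2 replicate 2 it was -0.05 for Ifih1, 0.18 for Cgas and -0.27 for Eif2ak2. The higher estimates of Ifih1 and Eif2ak2 thus rested on that library, and that of Cgas was smaller without it but kept its sign. With the trend removed the log2 fold change was 0.24 for Ifih1, 0.67 for Cgas and 0.43 for Eif2ak2.

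Sting1, which encodes the adaptor that cGAS signals through, ran the other way from Cgas. It measured 23.4 and 22.9 CPM in the MEIS2 libraries, against 40.5 and 29.7 CPM in the controls, with no overlap. Its log2 fold change was -0.60 (SE 0.35, adjusted p 0.583 in edgeR), -0.46 with the trend removed and between -0.82 and -0.37 over fits that left out 1 library. Zbp1, a sensor of Z-form nucleic acid that can trigger cell death, was lower without overlap as well, at 347.5 and 259.2 CPM in the MEIS2 libraries, against 424.4 and 374.9 CPM in the controls (log2 fold change -0.40, SE 0.31, adjusted p 0.625 in edgeR). Its counts were 5424 and 4347 in the MEIS2 libraries, against 6513 and 6091 in the controls. Dhx58, which encodes the regulator LGP2, stood at -0.30 (SE 0.30), Mavs, the mitochondrial adaptor, at -0.20 (SE 0.31), which was 0.02 with the trend removed, and Adar, which edits double-stranded RNA, at -0.10 (SE 0.31), which was 0.04 with scaling by library size alone. Zbp1 had the highest level of this role per kilobase, at 86 ± 17.7 CPM in the MEIS2 line and 113.2 ± 9.92 in the control line (SD, n = 2 each).

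The IFIT genes, whose products bind the ends of foreign RNA, lie side by side on chromosome 19. Ifit3 (34560931 to 34566131, plus strand) was the most abundant per kilobase, at 315.6 ± 13.6 CPM in the MEIS2 line and 389.6 ± 23.7 in the control line (SD, n = 2 each). Its libraries held 8857 and 8955 counts in the MEIS2 line, against 9985 and 11521 in the controls, with no overlap in CPM and an estimated log2 difference of -0.30 (SE 0.31, adjusted p 0.696 in edgeR). Ifit3 and Ifit3b, whose printed promoter windows were the same, matched at 97.8% over 1700 bases of transcript, so the split of reads between them is uncertain. Their summed level was 668.7 and 677.6 CPM in the MEIS2 libraries, against 778.4 and 851.9 CPM in the controls, and the log2 ratio of the mean sums was -0.28.

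Ifit1 interleaved between the lines, at 245.4 and 391 CPM in the MEIS2 libraries, against 284 and 422.1 CPM in the controls (log2 fold change -0.15, SE 0.34). Replicate 1 was low and replicate 2 high in both lines. Ifit3b stood at -0.14 (SE 0.31). The signs of Ifit1 and Ifit3b turned with scaling by library size alone and without MEIS2 replicate 1, and that of Ifit1 also without control replicate 2. Ifit2 stood at 0.54 (SE 0.37), from 71.4 and 159.8 CPM in the MEIS2 libraries, against 70.2 and 89.3 CPM in the controls, and at -0.20 without MEIS2 replicate 2.

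The OAS genes make or bind the short RNA signal that activates RNase L or, for the OAS-like genes, act in RNA sensing. All 6 had lower fitted levels, from -0.71 to -0.01, where 49.1% of all tested genes did. Oas1a, Oas1g and Oasl1 are shorter than 3029 bases, and 72.3% of all tested genes of up to that length were lower. Oas1a (chromosome 5, 121034319 to 121045584, minus strand) was the most abundant per kilobase, at 354.7 ± 149.1 CPM in the MEIS2 line and 579.3 ± 157.7 in the control line (SD, n = 2 each). It had 13536 and 7882 counts in the MEIS2 libraries, against 19983 and 14326 in the controls. In CPM, MEIS2 replicate 1 lay just under control replicate 2 (867.3 against 881.8), MEIS2 replicate 2 was far lower and control replicate 1 far higher. The log2 fold change was -0.71 (SE 0.37, 95% interval -1.51 to 0.09, adjusted p 0.557 in edgeR), -0.50 with the trend removed, and -0.38 without MEIS2 replicate 2.

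Oas1g matched Oas1a at 97.5% over 1860 bases, and stood at -0.55 (SE 0.35), with MEIS2 replicate 1 and control replicate 2 level at 377.3 and 377.2 CPM. Summed, Oas1a and Oas1g measured 1244.5 and 681.1 CPM in the MEIS2 libraries, against 1787.8 and 1259 CPM in the controls, and Oas1a took between 69% and 72.8% of the sum in each library. Oasl1 had no overlap between lines and an estimate of -0.53 (SE 0.33), or -0.15 with the trend removed. Oas2 was nearly the same in all libraries, at 286.5 and 292.6 CPM in the MEIS2 libraries, against 293 and 290.9 CPM in the controls, with a 95% interval of -0.65 to 0.63 around -0.01. Oas3 stood at -0.07 (SE 0.30) and Oasl2 at -0.11 (SE 0.32), both with the MEIS2 libraries below the controls, and Oasl2 at -0.30 with the trend removed. The signs of Oas2, Oas3 and Oasl2 turned with scaling by library size alone, and that of Oas2 also with a filter at 5 CPM.

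The products of the 4 IFITM genes sit in membranes and hinder the entry of enveloped viruses. This was the role in which both MEIS2 libraries lay below both controls for every gene, where 19.1% of all tested genes did so. The 4 are short, from 655 bases (Ifitm2) to 1094 (Ifitm1), and 72.3% of all tested genes of up to 3029 bases were lower. The log2 fold changes of the 4 IFITM genes ranged from -1.73 to -0.57 and were between -1.54 and -0.16 with the trend removed. Ifitm3 (chromosome 7, 140589499 to 140590683, minus strand) ranked 6 in the MEIS2 line and 4 in the control line among 12802 tested genes by level per kilobase. It had 35970 and 24448 counts in the MEIS2 libraries, against 56194 and 40765 in the controls, which took 0.229% and 0.163% of the MEIS2 libraries and 0.332% and 0.248% of the control libraries.

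In CPM, Ifitm3 measured 2305 and 1458 in the MEIS2 libraries, against 3662 and 2509 in the controls, so that the MEIS2 libraries were lower but MEIS2 replicate 1 was close to control replicate 2. Its log2 fold change was -0.71 (SE 0.37, 95% interval -1.51 to 0.08, adjusted p 0.551 in edgeR). It was -0.42 with the trend removed or without control replicate 1, and -1.10 without MEIS2 replicate 1. Ifitm2, in the same cluster on chromosome 7, measured 198.2 and 121.6 CPM in the MEIS2 libraries, against 267.9 and 206.7 CPM in the controls (log2 fold change -0.57, SE 0.33, or -0.16 with the trend removed).

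Ifitm6 and Ifitm1 were nearly silent in comparison. Ifitm6 (chromosome 7, 140595612 to 140597837, minus strand) had 6 and 10 counts in the MEIS2 libraries, against 30 and 22 in the controls. These are 0.384 and 0.596 CPM in the MEIS2 libraries, against 1.95 and 1.35 CPM in the controls, a clear gap between the lines at a low level. Its log2 fold change was -1.73 (SE 0.64, 95% interval -3.11 to -0.35, unadjusted p 0.0174 and adjusted p 0.341 in edgeR). It stayed between -2.13 and -1.46 over fits that left out 1 library and was -1.54 with the trend removed. Ifitm1 had 12 and 17 counts in the MEIS2 libraries, against 31 and 23 in the controls, an estimated log2 difference of -0.94 (SE 0.59, adjusted p 0.596 in edgeR) that was -0.66 with the trend removed. Transcripts of Ifitm1, Ifitm2 and Ifitm3 matched each other at 80.7% to 83.8% over 266 to 363 bases, and copies of Ifitm1, Ifitm2 and Ifitm3 at 90% or more elsewhere in the table had 0 counts in every library.

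Among the other antiviral effectors, Bst2, which encodes tetherin, the protein that holds budding viruses at the cell surface, was the most abundant. Bst2 (chromosome 8, 71986899 to 71990100, minus strand) ranked 9 in the MEIS2 line and 11 in the control line by level per kilobase. It had 28185 and 19922 counts in the MEIS2 libraries, against 31925 and 27175 in the controls. In CPM, MEIS2 replicate 1 lay between the controls (1806, against 2080 and 1673), and the log2 fold change was -0.33 (SE 0.35, adjusted p 0.71 in edgeR), and 0.13 with the trend removed.

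Isg20, an RNA exonuclease, had close replicates within each line. It measured 75.2 and 76.4 CPM in the MEIS2 libraries, against 103.3 and 104.8 CPM in the controls. Its log2 fold change was -0.46 (SE 0.30, adjusted p 0.596 in edgeR), between -0.51 and -0.46 over fits that left out 1 library, but 0.04 with the trend removed. Xaf1, a promoter of apoptosis, was similar in size, at 236.1 and 212.2 CPM in the MEIS2 libraries, against 300.7 and 308.4 CPM in the controls, and its log2 fold change of -0.44 (SE 0.30) was -0.53 with the trend removed.

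The remaining effectors stood within 1 SE of 0. Rsad2, which encodes viperin, stood at 0.30 (SE 0.32), and at -0.10 without MEIS2 replicate 2. Samhd1, which depletes nucleotides, stood at 0.20 (SE 0.30) with both MEIS2 libraries above both controls, and at -0.19 with the trend removed. The dynamin-like GTPases Mx1 and Mx2 stood at 0.11 and 0.03 and the guanylate-binding proteins Gbp2 and Gbp3 at -0.04 and 0.10, each with an SE between 0.30 and 0.34. The signs of these genes turned in at least 1 alternative, without control replicate 1 among them for Mx1, Mx2 and Gbp3 and with scaling by library size alone for Gbp2. Mx2 and Mx1 share a stretch of 95.3% identity over 843 bases, and their summed level was 137.9 and 154.5 CPM in the MEIS2 libraries, against 123.4 and 155.4 CPM in the controls.

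Isg15 encodes a small relative of ubiquitin that becomes linked to target proteins during the response. Isg15 (chromosome 4, 156283912 to 156285253, minus strand) had 12354 and 12066 counts in the MEIS2 libraries, against 17436 and 17560 in the controls. In CPM these are 791.5 and 719.3 in the MEIS2 libraries, against 1136 and 1081 in the controls. The lines did not overlap, and each line's replicates were close together. The log2 fold change was -0.55 (SE 0.32, 95% interval -1.24 to 0.13, adjusted p 0.578 in edgeR). It stayed between -0.64 and -0.53 over fits that left out 1 library, and was -0.18 with the trend removed. Isg15 ranked 25 in the MEIS2 line and 19 in the control line by level per kilobase. Usp18, the protease that takes ISG15 off and dampens receptor signalling, measured 757.3 and 513.7 CPM in the MEIS2 libraries, against 776.1 and 759.3 CPM in the controls, so MEIS2 replicate 2 alone was clearly lower (log2 fold change -0.27, SE 0.33, or -0.06 without that library).

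Trim25 and Parp14 had the highest estimates of the 48, with Cgas. Trim25 encodes a ubiquitin ligase that activates the RNA sensor RIG-I and also attaches ISG15. Trim25 (chromosome 11, 88890202 to 88911119, plus strand) had 4234 and 5293 counts in the MEIS2 libraries, against 2346 and 3254 in the controls. In CPM these are 271.3 and 315.6 in the MEIS2 libraries, against 152.9 and 200.3 in the controls, with both MEIS2 libraries above both controls. The log2 fold change was 0.73 (SE 0.31, 95% interval 0.07 to 1.39, unadjusted p 0.0319 and adjusted p 0.413 in edgeR). It was 0.61 with the trend removed and between 0.54 and 0.93 over fits that left out 1 library.

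Parp14 encodes a mono-ADP-ribosyltransferase with macrodomains. Parp14 (chromosome 16, 35653244 to 35691914, minus strand) had 1702 and 3916 counts in the MEIS2 libraries, against 1065 and 1283 in the controls. In CPM these are 109.0 and 233.5 in the MEIS2 libraries, against 69.4 and 79 in the controls. Both MEIS2 libraries were higher, but MEIS2 replicate 2 was far above MEIS2 replicate 1. Its log2 fold change was 1.21 (SE 0.36, 95% interval 0.43 to 1.98, unadjusted p 0.00484 and adjusted p 0.279 in edgeR), 0.71 with the trend removed and 0.52 without MEIS2 replicate 2. At 9306 bases it is the longest of the 48. Parp9, its neighbour on chromosome 16, stood at 0.24 (SE 0.32), and at -0.09 without MEIS2 replicate 2, and overlaps Dtx3l on the other strand.

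The last group holds genes known mainly as interferon-stimulated. Ifi35 was the most abundant of these per kilobase and lower without overlap, at 319.1 and 177.2 CPM in the MEIS2 libraries, against 423 and 324 CPM in the controls (log2 fold change -0.59, SE 0.35, adjusted p 0.586 in edgeR, or -0.27 with the trend removed). Its counts were 4980 and 2973 in the MEIS2 libraries, against 6491 and 5264 in the controls. MEIS2 replicate 1 was almost level with control replicate 2. Ifi27 stood at -0.44 (SE 0.35, or -0.15 with the trend removed) and Rtp4, a chaperone of receptors, at -0.21 (SE 0.29), both without overlap between the lines. Rtp4 shares its place in the table with Masp1 on the other strand, which had 1552 to 1844 counts in a library against 2223 to 2849 for Rtp4, so the split of reads between them is uncertain. Ifi44 stood at 0.36 (SE 0.36) and at -0.28 without MEIS2 replicate 2. Cxcl10, a chemokine that draws lymphocytes, was level in all libraries, at 119.4 and 138.3 CPM in the MEIS2 libraries, against 124.8 and 128.5 CPM in the controls, with a log2 fold change of 0.03 (SE 0.30) whose sign turned with the scaling.

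The ligands were low or had 0 counts. Of 10 type I interferon genes looked up, Ifnb1, which encodes interferon beta, was the only one with enough counts to be tested. It had 37 and 35 counts in the MEIS2 libraries, against 40 and 42 in the controls, or 2.37 and 2.09 CPM in the MEIS2 libraries, against 2.61 and 2.59 CPM in the controls (log2 fold change -0.22, SE 0.49). Per kilobase, Ifnb1 lay above 34.1% of tested genes in the MEIS2 line and above 41.4% in the control line. Ifna4 had 3 and 6 counts in the MEIS2 libraries, against 5 and 10 in the controls. Ifna2 had 0 and 1 in the MEIS2 libraries, against 6 and 0 in the controls, and Ifna5 had 0 and 0, against 2 and 0. Ifna1, Ifna9, Ifna11, Ifna12, Ifne and Ifnk had 0 counts throughout. Ifng, Ifnl2, Ifnl3 and the receptor chain Ifnlr1 had 0 counts as well.

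Other genes of the pathway were counted in the same fit. Of 75 looked up, 57 were tested, none passed an adjusted p of 0.05, and at an unadjusted p under 0.05 in edgeR 4 were higher (7.02%, against 9.79% of all tested genes) and 0 lower. The 4 were Traf3, an adaptor of the sensors, at 1.13 (SE 0.37), Ptpn11, a phosphatase of receptor signalling, at 0.73 (SE 0.31), Cmpk2, an antiviral nucleotide kinase, at 0.71 (SE 0.31), and Ifi203 at 1.06 (SE 0.49). Traf3 measured 33.5 and 46.5 CPM in the MEIS2 libraries, against 14.9 and 21.6 CPM in the controls, with both MEIS2 libraries above. Ifi203 stood at -0.14 without MEIS2 replicate 2. The kinase Jak1 stood at 0.39 (SE 0.32) and the kinase Tyk2 at -0.15 (SE 0.32). Of 32 further interferon-stimulated genes tested, 18 were lower (56.2%, against 49.1% of all tested genes). Their median was -0.18, against 0.01 over all tested genes. With the trend removed it was -0.09, against 0.03.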

How the data were processed

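Poly(A)-selected RNA was sequenced in 2 libraries of each line, per the labels' protocols. The deposited table holds whole-number counts per gene and a gene length. Per the submitters' processing notes, DESeq2 was used, with no version named. The aligner, counting program, strandedness and build were not given in the sources used here. The deposited counts entered edgeR 4.0.16 (R 4.3.3) unchanged: filterByExpr, TMM scaling and the quasi-likelihood F test on the line alone, with Benjamini-Hochberg values over 12802 genes. The biological coefficient of variation was 27.95%. SE is the log2 fold change divided by the square root of F, without sign. The test was also run on simulated counts with genes changed by known folds. These were drawn with the same dispersion for all genes and without the length trend. That run therefore does not show how well the p-values hold for these libraries. The length and GC trend was a spline fit per library on the table's gene length and the GC content of the longest GENCODE M21 transcript, found for 98.85% of tested genes, removed as an offset. Levels are TMM-scaled CPM, divided by the table's gene length in kilobases where genes are compared. Deviations are of log2(CPM + 0.5). Near copies were sought with BLAST+ 2.17.0 at 90% identity over at least 150 bases and 50% of the copy. Libraries of 1 line differed beyond counting noise (chi-square over its degrees of freedom was 87.3 in MEIS2 and 33.6 in control), so each counted as 1 replicate. Floors cover counting error only.

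The members and gene lists were chosen with earlier results of these data known. Full statistics went to members past the threshold, to the 6 with the lowest unadjusted p, to the 4 with the largest fold change in each direction, and to the one with the highest level per length in each role. Alternatives were other scalings, filters and tools (DESeq2 1.42.0, limma-voom 3.58.1), the replicate number as a block, the trend removed, and leaving out each library. Protein identity could not be computed with the sequences at hand, so transcripts were compared. The values of 1 gene that was looked up are not reported here.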

Additional observations from a re-analysis of the deposited data

How the results depend on the processing

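The direction of 26 of the 48 genes held under every alternative in which the gene was tested. Of these 22 were lower and 4 higher (Parp14, Trim25, Cgas and Stat2), and Ifitm1 and Ifitm6 were not tested with the filter at 5 CPM. The matching share of all tested genes was not computed, so the count is not read as particular to these genes. For the other members the cause of the change in sign was not tested. Over all tested genes 1 gene passed, and 271 did with no filter on low counts (12802 genes with the filter), 70 with DESeq2, and between 1 and 2411 over fits that left out 1 library. Of the 48, 0 passed, and 1 did with no filter, and 0 to 8 over fits without 1 library. A fit without a library leaves 1 sample in a line, which is assumed to vary like the other line. With the replicate number as a block, 2795 genes and 12 of the 48 passed, and 2704 and 11 with the block and the trend removed together; same-numbered libraries deviated together (correlation 0.529 from 2 numbers), but the labels do not pair them. The 12 (25% of the 48, against 21.8% of all tested genes) were Cgas, Eif2ak2, Ifih1, Parp14 and Trim25, higher, and Ifi35, Ifitm2, Ifitm3, Ifitm6, Irf3, Oas1a and Oas1g, lower; with block and trend it was 22.9% against 21.1%. At an unadjusted p under 0.05 the block gave 6 higher (12.5%, against 20.2% of all tested genes) and 14 lower (29.2%, against 15%), and with the trend removed as well 5 (10.4%, against 18.3%) and 12 (25%, against 13.8%). Over fits without 1 library these were 0 to 7 higher and 0 to 7 lower, both highest without MEIS2 replicate 1, where 14.6% of the 48 were higher and 14.6% lower, against 21.2% and 13% of all tested genes. The number lower was 3 with no filter (6.25%, against 1.42% of all tested genes), 0 with a filter at 5 CPM, which leaves out Ifitm1 and Ifitm6 (all tested genes: 0.219%), 2 with DESeq2 (4.17%, against 0.758%) and 4 with the trend removed (8.33%, against 3.75%). The median of -0.18 was -0.03 with library size alone, -0.09 with the trend removed, -0.10 with block and trend, and -0.29 to -0.17 without 1 library. The number of members lower, an alternative summary chosen after seeing the data, was 32 of 48, and 29 to 41 were lower without 1 library.

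With library size alone Adar stood at 0.04, Ifit1 at 0.01, Ifit3b at 0.02, Oas2 at 0.14, Oas3 at 0.08, Oasl2 at 0.04 and Gbp2 at 0.12. With the trend removed, alone or with the block, Mavs stood at 0.02, Bst2 at 0.13, Samhd1 at -0.19, Gbp2 at 0.03 and Isg20 at 0.04 or 0.02. With a filter at 5 CPM Oas2 stood at 0.01. Mx2 stood at -0.02 and Cxcl10 at -0.03 with DESeq2 or its size factors, both at -0.01 with no filter, and Cxcl10 at 0.00 from below with upper quartile scaling. Without 1 library, Ifnar1 ranged from -0.05 to 0.37, Ifih1 from -0.05 to 1.13, Eif2ak2 from -0.27 to 1.14, Adar from -0.30 to 0.02, Ifit1 from -0.56 to 0.15, Ifit2 from -0.20 to 0.99, Ifit3b from -0.46 to 0.07, Mx1 from -0.01 to 0.22, Mx2 from -0.18 to 0.25, Rsad2 from -0.10 to 0.57, Gbp2 from -0.23 to 0.16, Gbp3 from -0.38 to 0.43, Parp9 from -0.09 to 0.48, Ifi44 from -0.28 to 0.77 and Cxcl10 from -0.12 to 0.11. The share of promoters with a motif was 35.1% for the STAT dimer motif in place of the response element. Counting error limits Ifitm6 and Ifitm1 most, at 6 to 31 counts in a library, and a count of 0 allows 0.177 to 0.2 CPM.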
